A study of Mus musculus with 17 samples.

Results

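Mouse liver RNA was examined for 10 genes that mark liver sinusoidal endothelial cells: Stab1, Stab2, Lyve1, Clec4g, Kdr, Pecam1, Fcgr2b, Mrc1, Wnt2 and Rspo3. They were chosen by gene name, and each matched 1 row, 10 of the 48440 genes in the deposited table. Polyadenylated RNA was sequenced from livers of miR-29 transgenic mice aged 2 months (TG, 6 libraries), wild-type B6 mice aged 2 years (2-year WT, 5 libraries) and wild-type B6 mice aged 2 months (2-month WT, 6 libraries). The labels give neither the promoter of the transgene, nor the miR-29 family member it encodes, nor the strain of the TG mice, and they leave it unsaid whether the libraries stem from different animals. The p-values below thus reflect spread among libraries, which may be technical. Batch A (10 libraries) was made with a TruSeq polyA kit and sequenced at UNC, and batch B (7 libraries, all male) with a NEBNext Ultra II Directional kit and sequenced at Cornell. The set held 12 males and 5 females, and each group had libraries of both batches and both sexes, with 1 female among the TG libraries. Values are the authors' normalized counts, which summed to between 28077001 and 44543936 per library. Sequencing depth is unknown, so no counting interval is given.

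Sinusoidal endothelial cells line the smallest vessels of the liver with a fenestrated wall that lacks an ordinary basement membrane. They clear waste from blood through scavenger receptors such as the stabilins and the mannose receptor, and they take up immune complexes through the inhibitory Fc receptor. Those around the central vein also secrete Wnt ligands and R-spondin 3, which maintain the pericentral gene programme of neighbouring hepatocytes.

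miR-29, the microRNA of the transgene, lowers messages that pair with its seed, the bases printed in capitals. The mature family members are shown because all share 1 seed, bases 2 to 8, and because that seed selects the single member with a match. The sequences and the GRCm38.p6 coordinates are RefSeq's. miR-29a-3p lies at chr6:31062673-31062694 on the minus strand, and miR-29b-3p at chr1:195037091-195037113 and miR-29c-3p at chr1:195037600-195037621 on the plus strand.
mmu-miR-29a-3p: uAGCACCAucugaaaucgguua
mmu-miR-29b-3p: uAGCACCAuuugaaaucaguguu
mmu-miR-29c-3p: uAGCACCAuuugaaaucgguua
The seed match TGGTGCT was searched on the sense strand of each gene's longest annotated 3′ UTR. Stab2 had 1 match and the other 9 genes had none, against 2758 of 20846 genes (13.2%) with a UTR of at least 30 nucleotides. The match begins at base 241 of the 404-nucleotide UTR of Stab2 and is shown in capitals within 26 bases of the transcript at chr10:86841347-86841372 (GRCm38, minus strand).
Stab2 site: caccttccagaTGGTGCTtggcctgt
A match of these letters is a description and does not show binding.

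All 10 genes were detected in each of the 17 libraries, so the labelled tissue held its endothelial markers throughout. The lowest value was 9.40 normalized counts, for Wnt2 in a batch B TG library. In bulk liver, fewer cells of a type and less RNA per cell cannot be told apart. To compare genes with each other, values were divided by the length of the longest annotated coding transcript. Clec4g, a C-type lectin of sinusoidal endothelium, had the highest level per length in all 17 libraries, with a median of 839.5 normalized counts per kilobase. The Fc receptor Fcgr2b followed with a median of 265.9 per kilobase and the mannose receptor Mrc1 with 196.4 per kilobase. Pecam1, Kdr, Lyve1 and Stab2 lay close together, with medians of 143.2, 124.1, 119.5 and 112.8 normalized counts per kilobase. Stab1 had a median of 77.4 per kilobase and Rspo3 of 70.0 per kilobase. Wnt2 was lowest, with a median of 43.7 per kilobase, and took rank 9 or 10 in every library. Stab1 and Stab2 each moved between rank 2 and rank 10 across libraries, the widest spread of rank in the set. The order differed by batch: the median rank of Stab1 was 2 in batch B and 9 in batch A, that of Stab2 9 in batch B and 6 in batch A, and that of Fcgr2b 5 in batch B and 2 in batch A. Every pair of neighbours in this order overlapped in its range over the 17 libraries, Clec4g and Fcgr2b included, although Clec4g led within each library.

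**Figure D1:**
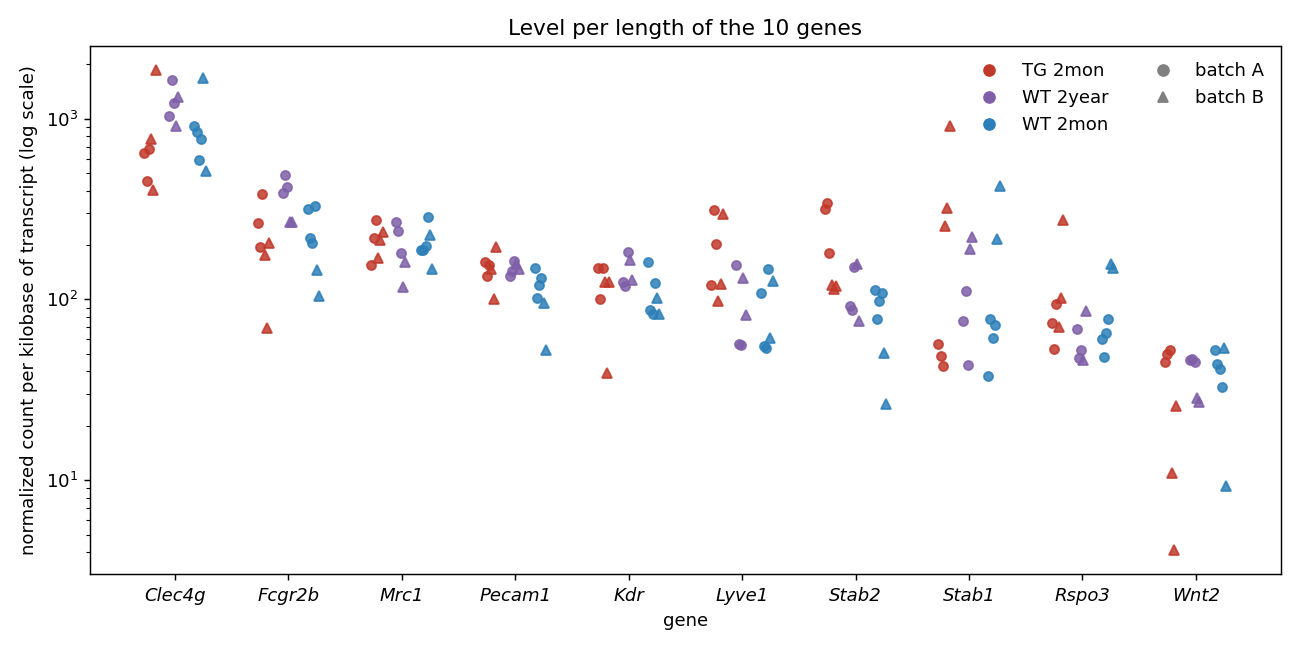
Normalized count per kilobase of transcript (log axis) of the 10 genes, ordered by their median over all libraries, with 1 point per library, coloured by group and shaped by batch. Clec4g lies above the other 9 genes in every library and Wnt2 at the low end, and the Stab1 points of batch B (triangles) lie above those of batch A (circles).

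The first question was which of these genes differ when miR-29 is carried as a transgene. Of the 10 genes, 1 rose in TG against 2-month WT livers and none fell, at an adjusted p under 0.05 in a limma fit with group, batch and sex as terms. Of all 14588 genes tested 6.71% were called, 2.89% as higher and 3.83% as lower. Higher genes made up 43.0% of those calls, and 53.1% when each library was rescaled by its upper quartile. At an unadjusted p under 0.05 the count was 3 of 10, against 21.2% of all genes. The median log2 fold change of the 10 was 0.11, beside 0.006 for all genes. Fold changes other than those of the authors' deposited tables were fitted to log2(value + 1), so those of low genes come out too small. In the authors' deposited table for the same comparison, 2 of the 10 passed, beside 14.1% of its genes.

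The gene that rose was Stab2 (ENSMUSG00000035459, chr10:86841198-87008025), the stabilin that clears hyaluronan and other glycosaminoglycans from blood. It measured 2599.9, 2793.8, 1484.7, 982.2, 936.9 and 974.2 normalized counts in the 6 TG libraries. It measured 757.6, 714.6, 1242.5, 1283.4 and 622.4 in the 2-year WT libraries and 927.9, 637.6, 802.2, 888.9, 416.6 and 216.2 in the 2-month WT libraries. All 6 TG libraries lay above all 6 of 2-month WT, though the lowest TG value (936.9, batch B) and the highest 2-month WT value (927.9, batch A) nearly touched. Stab2 was the sole member whose groups did not overlap in this direction, beside 1.11% of all genes. It averaged 1629 ± 854 in TG and 648.2 ± 282.9 in 2-month WT livers (SD, n = 6 each), with a fitted log2 fold change of 1.44 ± 0.28 (SE; 95% interval 0.86 to 2.02; limma adjusted p = 0.00406).

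Since TG and 2-month WT did not overlap as whole groups, Stab2 was necessarily higher in TG within each combination of batch and sex too. The split therefore adds no separate evidence, and 4.21% of all genes showed this pattern. In batch A males the TG libraries averaged 2697 (n = 2) and the 2-month WT libraries 782.8 (n = 2). In batch A females the single TG library had 1485, against 845.6 in 2-month WT (n = 2). In batch B males the means were 964.4 ± 24.2 in TG (SD, n = 3) and 316.4 in 2-month WT (n = 2). Fitted alone, batch A gave a log2 fold change of 1.39 (adjusted p = 0.025) and batch B 1.68 (adjusted p = 0.0772), so the call was lost in the smaller batch. It was also lost with group as the only term (1.33, adjusted p = 0.0734). The interaction of transgene and batch for Stab2 was 0.29 ± 0.47 on the log2 scale (SE, batch B minus batch A; limma adjusted p = 0.79). Stab2 is also the member that carries the miR-29 seed match. Over the tested genes, 1989 of 12927 with an annotated 3′ UTR of that length (15.4%) hold the match, and of those 54 rose and 53 fell in TG livers with a median log2 fold change of 0.038. Among the 10938 without it, 338 rose and 444 fell, with a median of -0.001.

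**Figure D2:**
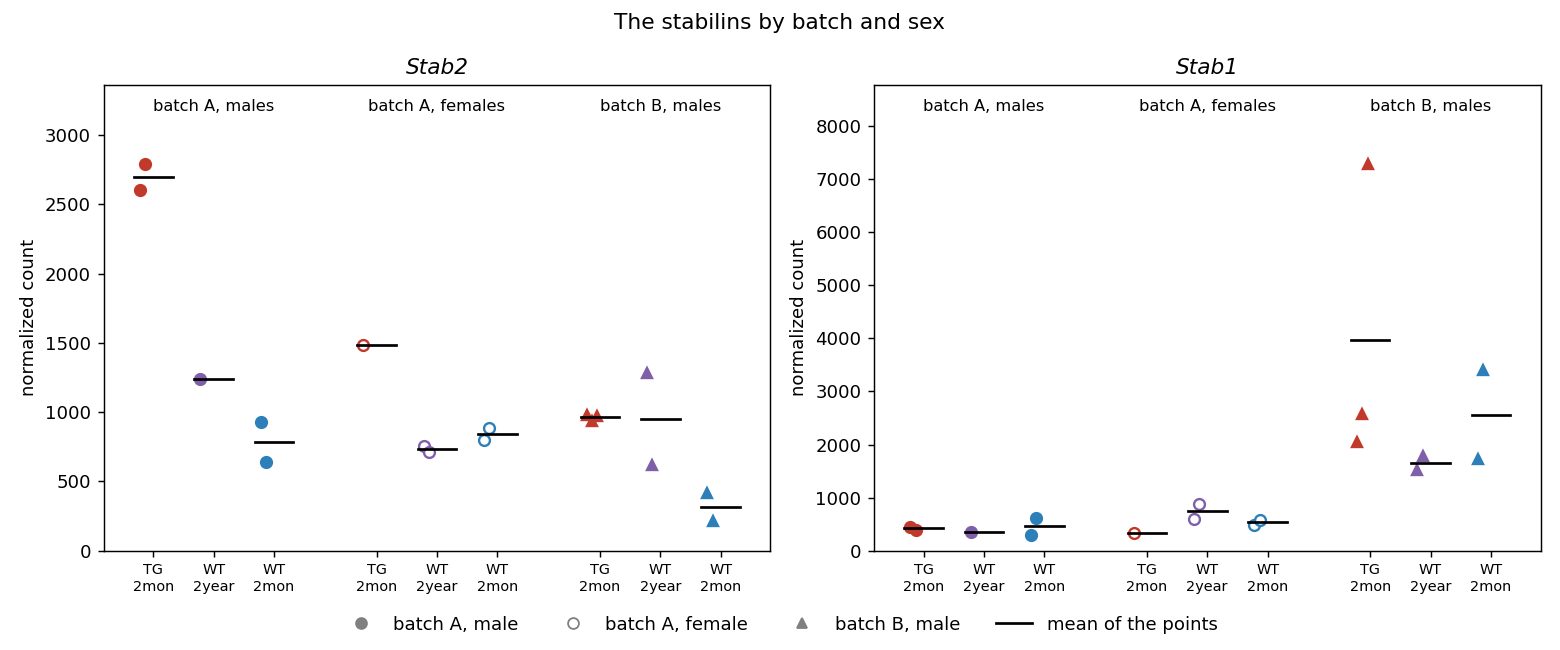
Normalized counts of Stab2 (left) and Stab1 (right) in every library, split by batch and sex and within each split by group, where points are libraries and bars are the mean of the points. Stab2 of TG lies above 2-month WT in each of the 3 splits, and Stab1 lies between 1513.1 and 7276.0 in batch B and between 302.9 and 885.4 in batch A.

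Stab1 (ENSMUSG00000042286, chr14:31139013-31168641), the sister receptor that takes up acetylated lipoprotein and matricellular proteins, passed in neither comparison with 2-month WT. It ranged from 343.0 through a median of 1247 to 7276 normalized counts in TG livers. In the 2-year WT livers it measured 605.4, 885.4, 348.3, 1513.1 and 1780.5, and in 2-month WT livers it ranged from 302.9 through 598.3 to 3401. The 3 groups overlapped across most of this span. The fitted log2 fold change was 0.13 ± 0.35 in TG against 2-month WT (SE; interval -0.61 to 0.86; limma adjusted p = 0.878), with -0.23 in batch A and 0.48 in batch B. In 2-year against 2-month WT it was -0.12 ± 0.36 (adjusted p = 0.921), with 0.20 in batch A and -0.56 in batch B.

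What separated the Stab1 values was the batch. Every batch B library (1513.1 to 7276.0, median 2043, n = 7) lay above every batch A library (302.9 to 885.4, median 469.3, n = 10). Stab1 was the sole one of the 10 without overlap between batches, beside 8.36% of all genes. Its batch term was 2.61 ± 0.35 on the log2 scale (batch B minus batch A, limma adjusted p = 4.82e-05). Stab2 went the other way, with a batch term of -1.15 ± 0.28 (adjusted p = 0.00373). The ratio of Stab1 to Stab2 normalized counts was therefore 1.18 to 15.7 in batch B (median 2.86) and 0.14 to 1.24 in batch A (median 0.468). The kit and the sequencing site changed together, so their parts cannot be told apart. Stab1 shares its 3′ end with Nt5dc2 on the opposite strand, whose own values were 45.2 to 201.8 normalized counts; the strand setting of the counting was not given in the sources used here, and reads of the shared stretch may be split between them.

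Lyve1 (ENSMUSG00000030787, chr7:110850607-110863239), a hyaluronan receptor shared by sinusoidal and lymphatic endothelium, had the second largest fitted difference in TG livers. It measured 345.7, 904.0, 582.5, 282.4, 352.6 and 861.4 normalized counts in TG, with a mean of 554.8 ± 274.1 (SD, n = 6). The 2-year WT libraries had 446.8, 165.0, 160.8, 382.2 and 238.3, and the 2-month WT libraries ranged from 154.8 through a median of 245.9 to 428.1, with a mean of 266.2 ± 118.4 (SD, n = 6). TG libraries 2, 3 and 6 exceeded every WT library, and the other 3 lay inside the WT range. The log2 fold change against 2-month WT was 1.05 ± 0.39 (SE; interval 0.23 to 1.87), with 1.29 in batch A and 0.80 in batch B, and limma's adjusted p of 0.122 missed the threshold. The authors' deposited table gives 1.09 ± 0.39 (SE) with an adjusted p of 0.0397, which passes. In 2-year against 2-month WT the difference was 0.037 ± 0.403 (adjusted p = 0.985), with -0.13 within batch A and 0.25 within batch B. The lymphatic marker list, which does not include Lyve1, had none of 6 tested genes called by limma in either comparison with 2-month WT, where 1 had an unadjusted p under 0.05 in TG and 2 in 2-year WT. The authors' deposited table called none of them in TG and 1 in 2-year WT, the chemokine Ccl21a (-2.10, adjusted p = 0.0103), which also passed in limma with array weights (-1.92, adjusted p = 0.0394). The summed level of the list was 1505 to 4335 in TG, 1665 to 6718 in 2-year WT and 1212 to 4940 in 2-month WT livers. Most of it was Prox1, Reln and Flt4, with medians of 1530.8, 797.8 and 504.8 over all libraries, beside 9.0 to 48.8 for the other listed genes. Reln is also on the stellate list used below and Flt4 on that of other sinusoidal genes. The sum is thus no measure of lymphatic endothelium alone. The part of lymphatic endothelium in the Lyve1 values was not tested.

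Clec4g (ENSMUSG00000074491, chr8:3707064-3720651), the lectin with the highest level per length, did not pass the test in either comparison. It ranged from 577.6 through a median of 950.2 to 2675 normalized counts in TG livers. The 2-year WT livers had 1494.8, 2343.6, 1757.6, 1307.5 and 1891.0, and the 2-month WT livers ranged from 738.2 through 1157 to 2425. The highest TG library and the highest 2-month WT library each stood well apart from the rest of their group. The log2 fold change was -0.27 ± 0.34 in TG (SE; adjusted p = 0.718) and 0.53 ± 0.36 in 2-year WT (adjusted p = 0.65), both against 2-month WT by limma. Within batch A the values were -0.41 for TG and 0.74 for 2-year WT, and within batch B -0.16 for TG and 0.23 for 2-year WT.

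Mrc1 (ENSMUSG00000026712, chr2:14229392-14332057), the mannose receptor that clears collagen propeptides and lysosomal enzymes, had the smallest standard error of the set in the fit. It ranged from 836.6 through 1153 to 1475 normalized counts in TG livers. The 2-year WT values were 1431.8, 1287.4, 974.8, 632.0 and 866.6, and 2-month WT livers ranged from 793.9 through 1033 to 1543. The 3 groups covered nearly the same span. The fitted differences from 2-month WT were 0.13 ± 0.18 in TG (interval -0.25 to 0.51, limma adjusted p = 0.737) and -0.15 ± 0.19 in 2-year WT (adjusted p = 0.801). Batch A gave 0.07 in TG and 0.027 in 2-year WT, and batch B gave 0.15 in TG and -0.41 in 2-year WT. Its largest term was sex: males averaged 984.7 ± 190.0 (SD, n = 12) and females 1359 ± 194 (SD, n = 5), with a male minus female log2 difference of -0.50 ± 0.20 and an adjusted p of 0.421. None of the 10 genes was called by sex, where 0.26% of all genes were.

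**Figure D3:**
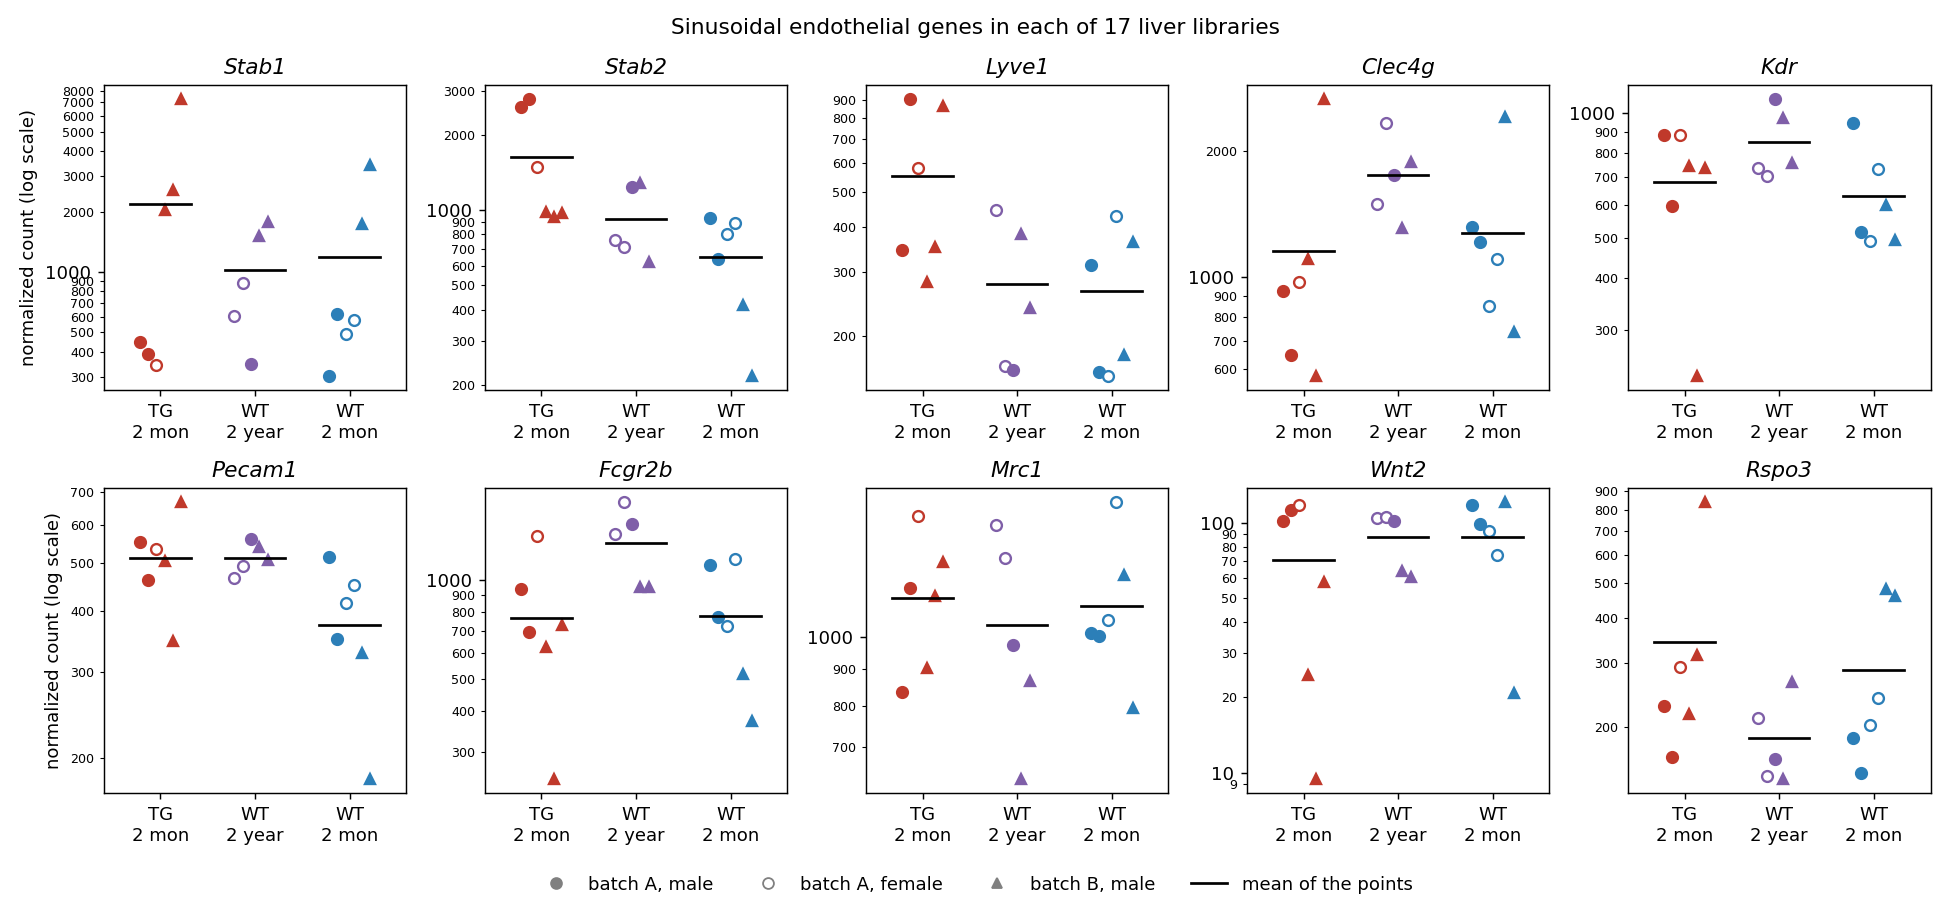
Normalized counts (log axis, a scale of its own in each panel) of the 10 genes in every library, with groups from left to right TG, 2-year WT and 2-month WT, batch and sex given by the marker, and bars at the group mean. Stab2 is the panel in which all TG points lie above all 2-month WT points, with 936.9 as the lowest TG and 927.9 as the highest 2-month WT value.

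The second question was which of these genes differ between old and young wild-type livers. None of the 10 genes was called in 2-year against 2-month WT by limma, where 0.144% of all genes were. No member had every 2-year library on 1 side of every 2-month library, as 0.61% of all genes did. At an unadjusted p under 0.05 there were 3 of 10, namely Fcgr2b, Stab2 and Pecam1, beside 8.73% of all genes. The median log2 fold change of the 10 was 0.37, beside -0.003 for all genes. The authors' deposited table called 1 of them, Fcgr2b, beside 1.77% of its genes.

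Fcgr2b (ENSMUSG00000026656, chr1:170958617-170976547) encodes the inhibitory Fc receptor through which sinusoidal endothelium removes small immune complexes. It measured 1381.6, 1731.8, 1481.3, 951.3 and 955.2 normalized counts in 2-year WT livers, a mean of 1300 ± 341 (SD, n = 5). The 2-month WT livers measured 1114.8, 773.2, 723.3, 1161.0, 516.1 and 371.2, a mean of 776.6 ± 315.3 (SD, n = 6). The groups overlapped as a whole, but in each of the 3 combinations of batch and sex every 2-year library lay above every 2-month one, as was so for 2.52% of all genes. The log2 fold change was 0.85 ± 0.27 (SE; interval 0.29 to 1.42; p = 0.00515, limma adjusted p = 0.356), with 0.69 in batch A and 1.12 in batch B. In the authors' deposited table it was 0.84 with an adjusted p of 0.0151. The TG livers had 942.2, 692.7, 1364.1, 624.1, 247.4 and 729.8, with a difference from 2-month WT of 0.093 ± 0.255 (limma adjusted p = 0.879). Fcgr2b resembles Fcgr3 in its extracellular part, and how the authors' counting split reads between them is not given in the sources used here.

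B cells also express Fcgr2b, and their marker list summed to more in every 2-year WT than in every 2-month WT library. The summed B-cell list of 10 genes was 333.6 to 2744 normalized counts in TG, 2616 to 8791 in 2-year WT and 575.1 to 2203 in 2-month WT livers. Of its 9 tested genes 1 rose in 2-year WT, the immunoglobulin heavy chain Ighm (3.27 ± 0.42, limma adjusted p = 0.0066), and of the defining B-cell markers Ms4a1 and Pax5 were listed at 0 in 2 of 17 libraries each. The list median was 0.80 in 2-year WT and -0.86 in TG. In TG 1 of the 9 rose, again Ighm (1.93 ± 0.41, limma adjusted p = 0.00811), and 5 had an unadjusted p under 0.05. The authors' deposited table called Ighm and Igkc in 2-year WT. In TG it called Ighm as higher and Cd79a as lower (-2.36, adjusted p = 0.00424). Ighm thus did not stand for the list in TG. The part of B cells in the Fcgr2b values was not tested. The other Fc receptors gave 0 of 5 tested genes called by limma in either comparison with 2-month WT, with 2 at an unadjusted p under 0.05 in TG and 1 in 2-year WT, whereas the authors' deposited table called 2 in TG and none in 2-year WT. Fcgr3, the activating receptor, differed by 0.86 ± 0.26 in TG (adjusted p = 0.055) and by 0.58 ± 0.27 in 2-year WT livers (adjusted p = 0.558). In TG it passed in the authors' deposited table (0.83, adjusted p = 0.0398), with upper-quartile scaling (adjusted p = 0.0488), with array weights (adjusted p = 0.0382) and without TG library 1 (adjusted p = 0.0258) or 2-month WT library 2 (adjusted p = 0.0475).

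For Stab2 the 2-year WT mean lay above the 2-month WT mean in males of both batches and below it in females. In batch A females the 2-year libraries averaged 736.1 (n = 2) and the 2-month libraries 845.6 (n = 2). In batch A males the single 2-year library had 1243, against 782.8 (n = 2) in 2-month WT, and in batch B males the mean was 952.9 in 2-year WT and 316.4 in 2-month WT (n = 2 each). Over both sexes the fitted age difference was 0.72 ± 0.29 (SE, interval 0.11 to 1.32, limma adjusted p = 0.535). It was 0.19 within batch A and 1.57 within batch B. The difference of this effect between sexes was 1.45 ± 0.49 on the log2 scale (males minus females, limma adjusted p = 0.166). Its difference between batches was 1.38 ± 0.49 (batch B minus batch A, limma adjusted p = 0.141). These were the only 2 of 40 interactions of age or transgene with batch or sex, over the 10 genes, at an unadjusted p under 0.05, and none passed adjustment. Over all genes 0.0137% passed for age by sex and 0.0206% for age by batch, and 1.3% for transgene by sex and 0.5% for transgene by batch. Batch B holds males alone, so sex and batch overlap in this comparison.

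Pecam1 (ENSMUSG00000020717, chr11:106654217-106750628) encodes the junctional adhesion molecule carried by endothelium of every vessel. It measured 466.2, 492.9, 561.6, 541.1 and 507.1 normalized counts in 2-year WT livers, a mean of 513.8 ± 38.0 (SD, n = 5). The 2-month WT livers had 514.4, 350.5, 414.9, 450.7, 327.8 and 180.9, a mean of 373.2 ± 116.0 (SD, n = 6). Within each combination of batch and sex the 2-year libraries lay above the 2-month ones, a pattern held by the same 2.52% of all genes. The log2 fold change was 0.55 ± 0.23 (SE; interval 0.06 to 1.04; limma adjusted p = 0.535), with 0.24 within batch A and 1.10 within batch B. The TG livers averaged 512.2 ± 106.0 (SD, n = 6), a difference from the same 2-month WT libraries of 0.54 ± 0.22 (adjusted p = 0.161), with 0.26 in batch A and 1.005 in batch B. Both comparisons share these controls, and 2-month WT library 6 held the lowest value of all.

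Kdr (ENSMUSG00000062960, chr5:75932827-75978458), the main signalling receptor for VEGF-A, passed in neither comparison. It ranged from 231.7 through a median of 740.2 to 885.8 normalized counts in TG livers. The 2-year WT livers had 735.0, 702.8, 1081.8, 972.1 and 758.2, and the 2-month WT livers ranged from 491.1 through 558.2 to 947.6. A single TG library, number 5, lay below all others. The log2 fold change was 0.06 ± 0.28 in TG (interval -0.54 to 0.66, limma adjusted p = 0.933) and 0.50 ± 0.30 in 2-year WT (adjusted p = 0.624). Batch A gave 0.23 for TG and 0.38 for 2-year WT, and batch B gave -0.12 for TG and 0.66 for 2-year WT. Of 12 tested VEGF and angiopoietin genes none was called by limma in either comparison with 2-month WT and 2 had an unadjusted p under 0.05 in each, while the authors' deposited table called none in TG and 1 in 2-year WT, with limma medians of 0.11 in TG and 0.018 in 2-year WT. The VEGF receptor Flt1, which acts largely as a decoy, differed by 0.75 ± 0.31 in TG (adjusted p = 0.169), and the co-receptor Nrp2 by 1.22 ± 0.28 in 2-year WT (adjusted p = 0.125). Nrp2 passed in the authors' deposited table (1.20, adjusted p = 0.000124) and in limma with array weights (1.22, adjusted p = 0.0394), and Flt1 passed without TG library 4 (0.97, adjusted p = 0.0397).

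The secreted signals of the set, Wnt2 and Rspo3, act on hepatocytes around the central vein. Wnt2 (ENSMUSG00000010797, chr6:17988940-18030585) measured 101.4, 112.8, 118.2, 24.6, 9.4 and 58.0 normalized counts in TG livers. The 2-year WT livers had 104.9, 105.3, 102.0, 64.1 and 60.7, and the 2-month WT livers had 117.8, 98.6, 92.3, 74.3, 121.3 and 20.9. Within batch A the 10 values kept between 74.3 and 118.2, while the 7 of batch B ran from 9.4 to 121.3. The fitted differences from 2-month WT were -0.36 ± 0.44 in TG (interval -1.30 to 0.58, limma adjusted p = 0.706; 0.21 in batch A and -1.05 in batch B) and 0.25 ± 0.46 in 2-year WT (adjusted p = 0.867; 0.16 within batch A and 0.29 within batch B). The batch term was -1.43 ± 0.45 (adjusted p = 0.0174).

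Rspo3 (ENSMUSG00000019880, chr10:29452416-29535867), the R-spondin that stabilises Wnt receptors, ranged from 164.5 through a median of 260.0 to 842.5 normalized counts in TG livers. The 2-year WT livers had 211.8, 146.1, 162.9, 142.8 and 265.5, and the 2-month WT livers ranged from 148.7 through 221.3 to 481.7. Rspo3 was the member with the lowest fitted age difference, -0.61 ± 0.32 (SE; interval -1.28 to 0.06; limma adjusted p = 0.591), with -0.22 in batch A and -1.27 in batch B. In TG livers it was 0.085 ± 0.303 (adjusted p = 0.909), with 0.28 in batch A and -0.29 in batch B. Of 16 tested Wnt and R-spondin pathway genes none was called by limma in either comparison with 2-month WT, where 3 had an unadjusted p under 0.05 in TG and 1 in 2-year WT. The authors' deposited table called 2 of its 17 listed genes in TG and none in 2-year WT. The limma medians were 0.053 in TG and 0.16 in 2-year WT. The R-spondin receptor Lgr5, itself a pericentral Wnt target, had the smallest p in TG livers (0.88 ± 0.28, adjusted p = 0.0682); it passed in the authors' deposited table (0.94, adjusted p = 0.014) and without TG library 1 (adjusted p = 0.0304). The ubiquitin ligase Rnf43, which removes Wnt receptors, had the smallest p in 2-year WT livers (0.63 ± 0.26, adjusted p = 0.535).

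**Figure D4:**
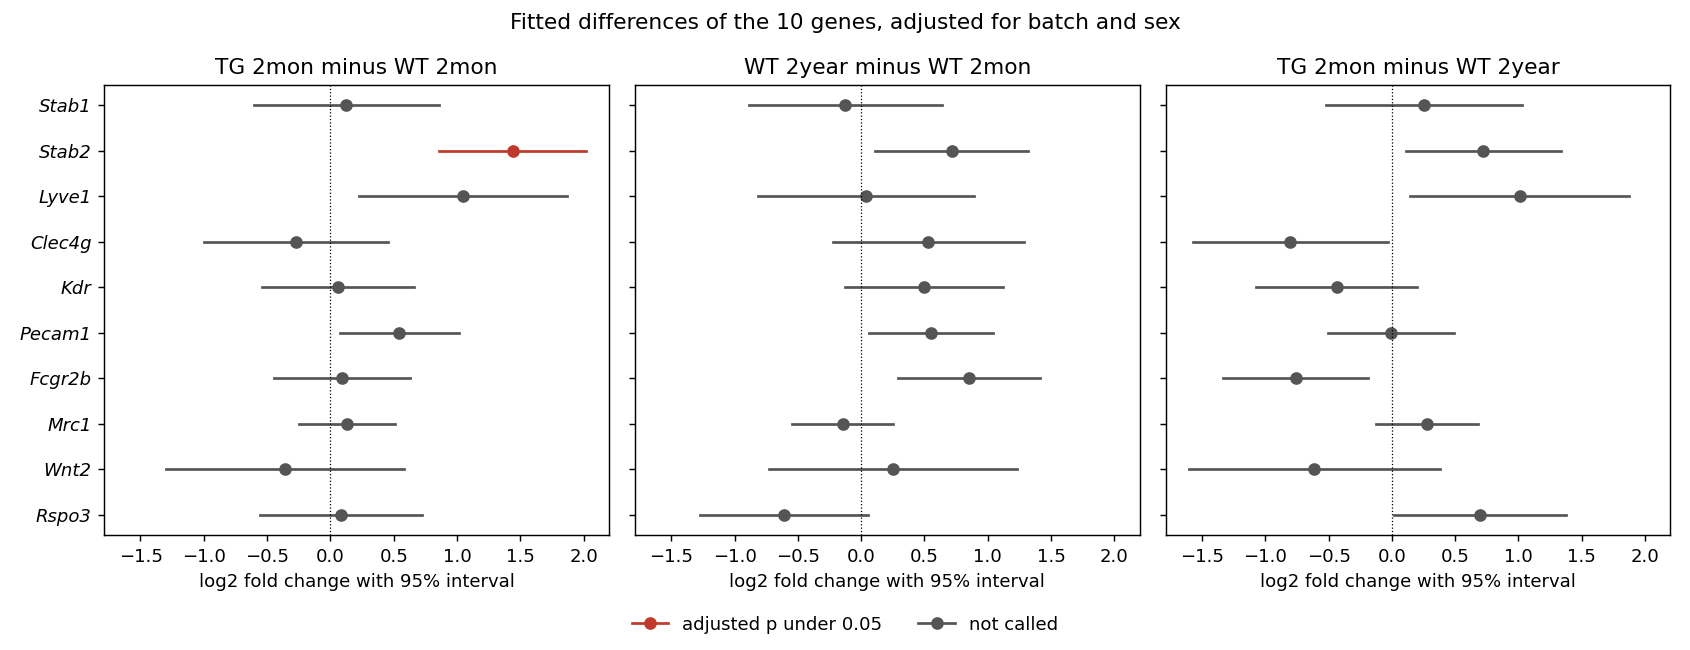
Log2 fold change (points) with 95% interval (bars) of the 10 genes in TG minus 2-month WT, 2-year WT minus 2-month WT and TG minus 2-year WT, adjusted for batch and sex. Stab2 in the first panel, at 1.44, is the single called value (red).

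TG and 2-year WT livers were also compared with each other, which asks where the transgenic livers stand relative to old ones. None of the 10 genes was called, beside 2.55% of all genes, and 5 of 10 had an unadjusted p under 0.05, beside 15.3%. None had groups without overlap, beside 1.82% of all genes. Lyve1 (1.01 ± 0.41), Stab2 (0.72 ± 0.29) and Rspo3 (0.69 ± 0.32) had positive differences, with adjusted p of 0.243, 0.237 and 0.311 by limma. Clec4g (-0.80 ± 0.36, adjusted p = 0.303) and Fcgr2b (-0.76 ± 0.27, adjusted p = 0.169) had negative ones. For Fcgr2b every TG library lay below every 2-year WT library in each of the 3 combinations of batch and sex, as for 3.32% of all genes. Pecam1 stood at -0.007 ± 0.235 (interval -0.50 to 0.49). Without 2-year WT library 4 Stab2 passed, with a difference of 1.05 and an adjusted p of 0.0268.

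Of the 10 genes 5 were called by batch, a share near the 42.7% of all genes called by it. Stab1 and Rspo3 were higher in batch B (2.61 and 0.98), and Wnt2, Stab2 and Fcgr2b were lower there (-1.43, -1.15 and -0.83 on the log2 scale). The adjusted p of Rspo3 was 0.017 and that of Fcgr2b 0.016 by limma; without 2-month WT library 1 the Fcgr2b value was -0.72 with an adjusted p of 0.0509. TG library 6 stood apart within batch B: its 10 genes summed to 16092.8 normalized counts, against 6727.4 to 8055.2 in the other TG libraries, 7635.8 to 8574.7 in 2-year WT and 5275.1 to 8010.4 in 2-month WT. It held the highest Stab1, Clec4g, Pecam1 and Rspo3 value of all libraries, and the highest sum of Kupffer cell markers (86696.2). Without it the Stab2 difference between TG and 2-month WT was 1.46 (adjusted p = 0.00771), and those of Stab1, Kdr, Fcgr2b and Rspo3 took the opposite sign, at -0.15, -0.019, -0.013 and -0.13, none of them called.

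**Figure D5:**
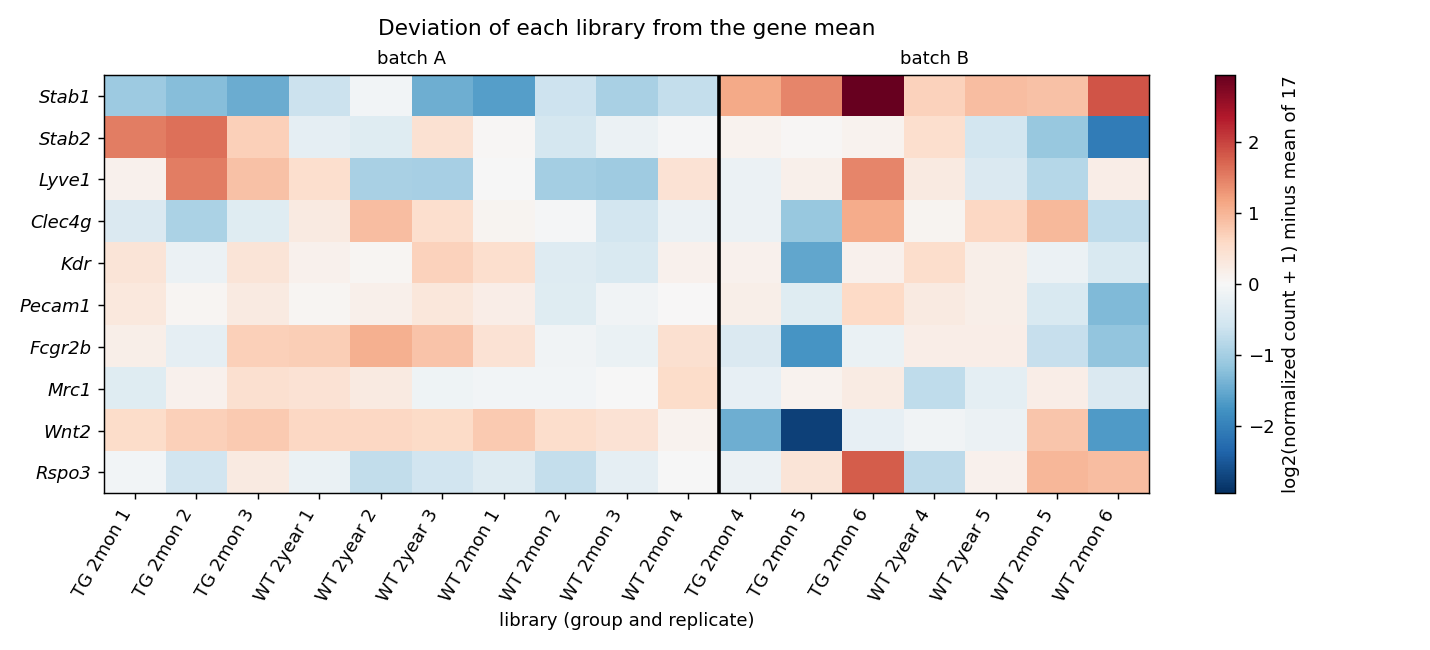
Deviation of each library (columns, grouped by batch and within it by TG, 2-year WT and 2-month WT) from the mean of its gene (rows) on the log2(normalized count + 1) scale, red above and blue below. Stab1 is blue or pale throughout batch A and red throughout batch B, and TG library 6 shows red for Stab1, Lyve1, Clec4g and Rspo3.

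After batch and sex were removed, the 45 pairs had Pearson correlations over the 17 libraries from -0.28 to 0.90 with a median of 0.16, and 30 were positive; the points share their libraries, and these are descriptions. The closest pair was Kdr and Fcgr2b (r = 0.90). Kdr was next most like She and Oit3 (0.88 and 0.87). Fcgr2b was most like Oit3 and Cd300lg (0.94 and 0.92). Stab2 tracked Pla2g7, Map3k1 and Zfp438 (0.93, 0.92 and 0.92), and its highest value with another member was 0.72, with Pecam1. Pecam1 was most like Pde2a, Trim35 and Tas1r3 (0.92, 0.89 and 0.88), and Rspo3 most like Mecom, Bicc1 and Zfp950 (0.92, 0.91 and 0.91). The nearest genes of Stab1 (Rrbp1, 0.88), Clec4g (Chst7, 0.88), Mrc1 (Vbp1, 0.87), Wnt2 (Fam171a2, 0.87) and Lyve1 (Cntln, 0.81) were none of the other 9.

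The promoters of the closest pair are shown because their levels were the most alike across libraries. Each is the 250 bases before and 50 after RefSeq's start of the gene, sense strand (GRCm38.p6), where 7 of the 10 genes had an entry: Kdr at chr5:75978406-75978705 and Fcgr2b at chr1:170976022-170976321. Both strands were searched for the ETS core letters CCGGAA and AGGAAG and the GATA letters AGATAA and TGATAA, whose factors act in endothelium. RefSeq's start differs from the outermost start of the GENCODE gene, and the Fcgr2b window lies inside the GENCODE gene coordinates given for it. Capitals mark the single match, CCGGAA on the opposite strand of Kdr, 153 bases before RefSeq's start.
Kdr promoter: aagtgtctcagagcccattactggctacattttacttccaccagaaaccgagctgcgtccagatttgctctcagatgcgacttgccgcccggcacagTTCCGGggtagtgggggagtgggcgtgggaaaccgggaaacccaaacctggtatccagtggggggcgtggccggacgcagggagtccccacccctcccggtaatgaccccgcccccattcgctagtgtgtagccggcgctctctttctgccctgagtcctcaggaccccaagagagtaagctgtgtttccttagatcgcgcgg
Fcgr2b promoter: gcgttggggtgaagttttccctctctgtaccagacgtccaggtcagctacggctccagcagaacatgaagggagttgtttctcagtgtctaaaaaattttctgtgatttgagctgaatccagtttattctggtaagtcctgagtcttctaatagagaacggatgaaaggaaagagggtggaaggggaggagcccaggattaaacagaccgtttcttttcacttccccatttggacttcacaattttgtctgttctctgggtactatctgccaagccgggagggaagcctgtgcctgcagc
CCGGAA was present in 15.2% of 27025 promoters of this length, AGGAAG in 35.1%, AGATAA in 11.4% and TGATAA in 9.3%. Of the other 5 members with an entry, Stab1, Stab2, Clec4g and Mrc1 held AGGAAG and Wnt2 held TGATAA. The closest pair shared none of these letters.

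Of 19 other tested genes of sinusoidal endothelium, 2 rose and 1 fell in TG against 2-month WT (median 0.20), beside 2.89% and 3.83% of all genes. Cd36, a fatty acid and lipoprotein receptor that hepatocytes and macrophages also carry, averaged 3210 ± 1036 normalized counts in TG (SD, n = 6) and 1347 ± 1305 in 2-month WT livers (SD, n = 6); the fitted log2 difference was 2.17 ± 0.28 (limma adjusted p = 0.000252). Adam23 rose by 1.70 ± 0.37 (adjusted p = 0.0106), and the cytokine receptor Lifr, which hepatocytes also express, fell by 2.10 ± 0.27 (adjusted p = 0.000252). In 2-year WT 1 of the 19 rose by limma, where 0.144% of all genes were called. It was again Cd36, with a mean of 3799 ± 2230 (SD, n = 5). Its fitted log2 difference was 1.87 ± 0.29 (limma adjusted p = 0.0139), and without 2-year WT library 3 its adjusted p was 0.0728. The authors' deposited table called 3 genes of this list in 2-year WT, namely Cd36, Bmp6 (1.57, adjusted p = 0.0215) and Lifr (-1.14, adjusted p = 0.0313). Lifr was thus lower there in both comparisons. In TG that table called 4, namely Cd36, Adam23, Lifr and Ctsl (1.33, adjusted p = 0.00527). TG library 3 stood apart, with a sum over this list of 229530.1 normalized counts, against 36483.4 to 70555.6 in the other TG libraries, 34820.1 to 57996.7 in 2-year WT and 39608.0 to 47022.8 in 2-month WT. Most of that sum was the protease Ctsl, with 212228.8 normalized counts there and a median of 26678.2 over all libraries. The sum thus mainly reflects this gene rather than the list as a whole. TG library 3 also had the lowest sum of hepatocyte markers, 1757030.9, against 2341283.6 to 5528673.1 in the other 16 libraries. The part of this in the list's values was not tested. Without TG library 3, Cd36, Adam23 and Lifr were still called in TG. The general endothelial list gave 0 of 18 in either comparison by limma, with 4 at an unadjusted p under 0.05 in TG and 2 in 2-year WT, and 0 in the authors' deposited tables, with limma medians of 0.23 in TG and 0.21 in 2-year WT. Its smallest p belonged in TG to the ETS factor Fli1 (0.68 ± 0.26, adjusted p = 0.137) and in 2-year WT to the transcription factor Sox7 (1.31 ± 0.45, adjusted p = 0.434).

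Among genes of capillary-type endothelium, which sinusoids acquire when they lose their fenestrae, 2 of 13 tested rose in TG livers (median 0.65), beside 2.89% of all genes. Limma called none in 2-year WT (median 0.24), where 1 had an unadjusted p under 0.05. In TG the authors' deposited table called 3, namely Apln, Vwf and Cd9 (0.73, adjusted p = 0.0207). Apln, the apelin peptide of sprouting endothelium, had 4.70 to 255.4 normalized counts in TG, 0 to 9.70 in 2-year WT and 0 to 1.20 in 2-month WT livers (limma adjusted p = 0.0157 for TG against 2-month WT), and it was listed at 0 in 6 of the 17 libraries. Its mean was 49.8 in TG (median 9.2), 3.1 in 2-year WT and 0.19 in 2-month WT. It thus met the filter, a mean of at least 10, only through TG livers, so its call is no separate evidence of a rise. Vwf, the clotting protein of endothelial storage granules, averaged 669.3 ± 470.3 in TG (SD, n = 6), 207.9 ± 114.1 in 2-year WT (SD, n = 5) and 234.0 ± 211.0 in 2-month WT livers (SD, n = 6). Its log2 fold change in TG was 1.35 ± 0.35 (adjusted p = 0.027), and leaving out any of 2-month WT libraries 1 or 2 or TG libraries 2, 5 or 6 ended the call, with adjusted p up to 0.0693. Vwf is also made by megakaryocytes, and of 4 tested platelet markers limma called none in TG livers, 1 having an unadjusted p under 0.05. The authors' deposited table called the platelet chemokine Pf4 (1.22, adjusted p = 0.00576), which also passed in limma without 2-year WT library 5 (1.17, adjusted p = 0.0292). The summed level of the list, over 7 listed genes, was 157.7 to 934.8 in TG, 101.6 to 1244 in 2-year WT and 80.7 to 570.7 in 2-month WT. The ephrin ligand Efnb2 had the smallest p in 2-year WT (0.95 ± 0.31, adjusted p = 0.388) and passed in the authors' deposited table (0.99, adjusted p = 0.0217).

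Of 15 tested scavenger receptors, 2 rose and 1 fell in TG livers (median 0.14), beside 2.89% and 3.83% of all genes. At an unadjusted p under 0.05 there were 7 in TG, beside 21.2% of all genes. In 2-year WT 1, Cd36, rose (median 0.33), where 0.144% of all genes were called. The authors' deposited table called 4 in TG, namely Cd36, Marco, Mrc2 and Scarb1 (1.02, adjusted p = 0.00151), and Cd36 in 2-year WT. Marco, the macrophage receptor for unopsonised particles, averaged 8725 ± 10080 in TG (SD, n = 6) and 287.9 ± 138.3 in 2-month WT livers (SD, n = 6); the fitted log2 difference was 3.97 ± 0.41 (limma adjusted p = 3.85e-05). Mrc2, the collagen receptor related to Mrc1, fell by 1.23 ± 0.33 (adjusted p = 0.0335), a call that ended in 11 of the 17 fits that each left out 1 library.

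Among markers of other liver cells, those of neutrophils were called most often in TG livers, where 6.71% of all genes were called. Of 10 neutrophil genes 9 rose in TG against 2-month WT (median 5.04), led by the granule proteins Mmp8, Ltf, Camp and Ngp (6.03, 5.38, 5.27 and 5.23, limma adjusted p 0.00061 to 0.0134), and limma called none in 2-year WT (median 1.94), although all 10 differences were positive there and 6 had an unadjusted p under 0.05. The lists were chosen with earlier results of these data known, so these counts are descriptions. Mmp8 averaged 384.1 in TG, 18.8 in 2-year WT and 2.28 in 2-month WT livers. That it met the filter, a mean of at least 10, rests largely on TG. In 2-year WT the authors' deposited table called 4 of the 10, among them Retnlg (3.45, adjusted p = 0.00129). Of these 10 genes 7 were listed at 0 in at least 1 library. Their sum was 9723 to 127502.8 normalized counts in TG, 1087 to 51236.8 in 2-year WT and 235.7 to 1298 in 2-month WT livers. Lcn2 was the largest part, with 205.6 to 82637.8 and a median of 1802.5 over all libraries. The medians of S100a9 and S100a8 were 262.6 and 131.8. The sum thus largely reflects Lcn2 rather than the list as a whole. Of 14 Kupffer cell genes 1, Marco, rose in TG and none was called by limma in 2-year WT, where 2 had an unadjusted p under 0.05 and the authors' deposited table called none, with sums of 13232.7 to 86696.2 in TG, 17892.7 to 58117.5 in 2-year WT and 16691.3 to 29125.5 in 2-month WT. In TG the authors' deposited table called 2 of the Kupffer genes, C1qc and Marco. None of the Kupffer genes was listed at 0 in any library. Several members, Mrc1, Stab1 and Fcgr2b among them, are also expressed by macrophages. The 18 general endothelial genes summed to 6141 to 12017.7 in TG, 7386 to 8175 in 2-year WT and 6514 to 8773 in 2-month WT. Limma called none of 13 stellate cell genes in either comparison, with 1 at an unadjusted p under 0.05 in each, and the authors' deposited table called the pericyte gene Rgs5 in TG (0.73, adjusted p = 0.0337; limma 0.69, adjusted p = 0.0822). In TG 1 of 9 tested hepatocyte genes fell (Serpina1c, -1.80 ± 0.42, adjusted p = 0.0145, whose near-identical paralogs make its counts uncertain) and 1 of 5 cholangiocyte genes (Spp1, -1.21 ± 0.33, adjusted p = 0.0372). The Spp1 call ended in 9 of the 17 fits that each left out 1 library, with adjusted p up to 0.132. The authors' deposited table called 3 hepatocyte genes in TG, Cps1 as higher and Serpina1c and Ttr as lower, and 1 cholangiocyte gene, Spp1. The part of these cells in the Stab2 and Lyve1 values was not tested.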

How the data were processed

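The tools named are STAR (2.5.3a), Salmon (0.6.0) and DESeq2, with build mm10, per the submitters' processing notes; roles, annotation and strandedness are not given in the sources used here. For 48440 genes and 17 libraries the authors deposited a table of normalized signal (DESeq2 normalized counts), and 2 comparison tables. Per the file headers these hold the authors' log2 fold change, test score and p-value. Between 47.2% and 69.3% of a library's low values lay within 0.1 of a whole read step, so reads could not be recovered and depth is unknown. Identifiers matched a reference table for 48058 genes. Coordinates and UTRs are GENCODE M21.

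Log2(value + 1) of the 14588 genes with a mean of at least 10 was fitted with limma 3.58.1 in R 4.3.3 (group, batch and sex; mean-variance trend), with Benjamini-Hochberg adjusted p under 0.05 over all genes as the call. All 10 members passed the filter. The fit was tested on simulated data. Named genes were all members and, per list and comparison with 2-month WT, up to 4 called genes with the largest fold change, otherwise the gene with the smallest p; genes with levels most alike are the top 3 by Pearson correlation. Members and lists were chosen with earlier results of these data known. Alternatives are given in the closing section.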

Additional observations from a re-analysis of the deposited data

Results flagged for a closer look

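In 4 of the 30 sets formed by a gene and a group, the highest library stood apart from the others of its group by Dixon's criterion. For independent values from 1 normal distribution, chance alone meets it in about 1 set in 20. That rate does not carry over here, because the values were not on a log scale and each group mixes both batches. TG library 6 held 3 of them, with 7276.0 normalized counts of Stab1, 2675.3 of Clec4g and 842.5 of Rspo3. The fourth was 2-month WT library 5, with 2424.8 of Clec4g. Both are batch B male libraries. Without TG library 6, the Clec4g difference between TG and 2-month WT was -0.52 on the log2 scale, and without 2-month WT library 5 it was -0.029; neither was called.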

How the results depend on the processing

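The depth behind each value is unknown, which limits what can be said of the lowest members, and batch B has 2 or 3 libraries a group. For TG against 2-month WT the count of members called, 1, became 0 with group as the only term, 0 in batch B alone and 2 in the authors' deposited table, and was 1 to 1 when libraries were left out in turn. Stab2 kept its direction throughout: group only gave 1.33 (adjusted p = 0.0734), and leaving out libraries gave 1.22 to 1.55 with adjusted p of 0.000424 to 0.0149. For 2-year against 2-month WT the count of 0 became 1 in the authors' deposited table and was 0 to 0 with libraries left out. For TG against 2-year WT the count of 0 became 1 with array weights (Stab2, 0.97, adjusted p = 0.0389) and was 0 to 1 with libraries left out. The calls of Adam23, Apln and Vwf in TG and of Cd36 in 2-year WT livers were each lost in batch A and in batch B alone, as were those of Ighm in both comparisons and of Camp and Ngp in TG; batch A alone also lost Mmp8 and Ltf. Spp1 (adjusted p up to 0.243) and Mrc2 (up to 0.471) lost their calls in 5 other settings each, and Serpina1c in 3 (up to 0.503). Group only ended the calls of Vwf and of Cd36 in both comparisons, males only those of Apln, Camp and Ngp, a pseudocount of 10 that of Apln (adjusted p = 0.114), and the replicate block that of Cd36 in 2-year WT; it made one of Flt1 in TG (0.97, adjusted p = 0.0403). The cause of these shifts was not tested. Correlations of same-numbered libraries ran from -0.32 to 0.38 over 16 pairs, with 7 over 0.1. Of the 17 libraries 6 were closest to their own number. No expected count was computed, so whether the numbers mark pairs remains undecided. With the replicate block the counts of members called were 1, 0 and 0.

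The following differences changed sign. In 2-year against 2-month WT, Stab1 (-0.12) was 0.082 with group only, 0.20 in batch A, 0.18 with the replicate block and 0.031 with array weights; Mrc1 was 0.027 in batch A and 0.023 with array weights; Lyve1 was -0.13 in batch A and -0.033 in the authors' table; Spp1 was 0.027 in batch A. In TG against 2-month WT, batch A gave -0.23 for Stab1 and 0.21 for Wnt2, batch B -0.12 for Kdr and -0.29 for Rspo3, males only -0.041 for Kdr, -0.02 for Fcgr2b and -0.034 for Rspo3, array weights -0.31 for Kdr and -0.26 for Fcgr2b, and group only -0.078 for Fcgr2b. In TG against 2-year WT, batch A gave -0.43 for Stab1, 0.019 for Pecam1 and 0.051 for Wnt2. The batch term of Rspo3 was -0.15 with the replicate block, under which the other 4 batch calls ended (Stab1 1.97, adjusted p = 0.286; Stab2 -1.42, 0.433; Fcgr2b -1.02, 0.598; Wnt2 -0.86, 0.841). Same-numbered libraries came from a single batch, except those numbered 4. The batch term under this block therefore rests on the libraries numbered 4, and this setting cannot judge the batch differences. Leaving out libraries spanned 0 in 2-year against 2-month WT for Stab1 (-0.34 to 0.036) and Lyve1 (-0.16 to 0.23), in TG against 2-month WT for Stab1 (-0.15 to 0.41), Kdr (-0.10 to 0.30), Fcgr2b (-0.048 to 0.29), Wnt2 (-0.62 to 0.048) and Rspo3 (-0.13 to 0.25), and in TG against 2-year WT for Stab1 (-0.048 to 0.55) and Pecam1 (-0.12 to 0.074). Upper-quartile scaling made 53.1% of called genes higher in TG, against 43.0% as deposited.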
